A study of Mus musculus with 14 samples.

Results

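Markers of the notochord and of the nucleus pulposus (NP), the gel-like core of the intervertebral disc (IVD), were examined in RNA sequencing of mouse caudal discs. The set held 10 genes chosen by name, *T*, *Noto*, *Foxa2*, *Shh*, *Krt8*, *Krt18*, *Krt19*, *Car3*, *Car12* and *Cd24a*, of 55487 genes in the count table. Of these, 8 passed the filter on low counts (a CPM, the count scaled to library size, above 1 in at least 3 libraries), as did 16915 genes in all. *Shh* and *Noto* did not pass and are given as counts.

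The 14 libraries came from 14 male mice in 2 cohorts, with 5 caudal discs of a mouse pooled into a library. In the first cohort, 3 db/db mice, homozygous for a mutant leptin receptor, were compared with 3 heterozygous db/+ littermates, all 3 months old. In the second, 4 C57BL/6J mice on a high-fat diet ate that diet for 4 to 6 weeks, received a single dose of 100 mg/kg of streptozotocin (STZ), a toxin of insulin-producing beta cells, and then ate it for 12 weeks more (STZ-HFD). Their 4 controls, labeled wild-type, had standard chow and the citrate vehicle (Con+Veh). The db/+ controls carry 1 mutant allele of the receptor. In the db/db mice the receptor is mutant in every cell, so the disc and the whole body are affected together. The cohorts differ in genotype, age and treatment, which cannot be told apart, so each diabetic group was compared with its own control.

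The notochord is a rod of embryonic midline cells that patterns its neighbors and later becomes the NP. The transcription factor brachyury, encoded by *T*, marks the notochord and its descendants in the disc, and FOXA2 and NOTO act with it in the embryonic notochord. Sonic hedgehog, encoded by *Shh*, is the signal those cells secrete. NP cells of young discs also hold simple epithelial keratins, carbonic anhydrases that handle acid in this avascular tissue, and the surface glycoprotein CD24.

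Library totals ran from 16076908 to 58943169 counts, and ribosomal RNA genes took 21.7% to 48.3% of them. STZ-HFD replicate 1 stood apart, since 84.9% of 2003 olfactory and vomeronasal receptor genes, which disc is not known to use, had a count there against 13.2% to 23.4% in the other 13 libraries. Genes of cartilage and of the annulus fibrosus, the ring around the NP, had counts in every library. Their summed levels were 5668 to 24142 CPM (15 cartilage genes) and 12484 to 23523 CPM (9 annulus and tendon genes) in the db cohort, and 639 to 3231 CPM and 1109 to 4071 CPM in the other. All levels are CPM scaled by trimmed mean of M-values (TMM) factors, and levels between genes are compared only as RPKM, the CPM divided by the exon length in kilobases.

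None of the 8 tested markers was called different in either model, and the groups overlapped for every one of them. The clearest pattern lay between mice: *T*, *Krt8* and *Krt19* varied together from library to library over a range of 17-fold to 25.2-fold, while their ratios stayed within 1.92-fold to 2.69-fold. All 3 db/db libraries were low for these genes, but so were 1 of 3 db/+ libraries and 1 of 4 Con+Veh libraries. In STZ-HFD discs *T* and *Krt8* were at levels inside the range of their controls, and *Krt19* passed the highest control in 1 library (112 against 110 CPM).

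**Figure D1:**
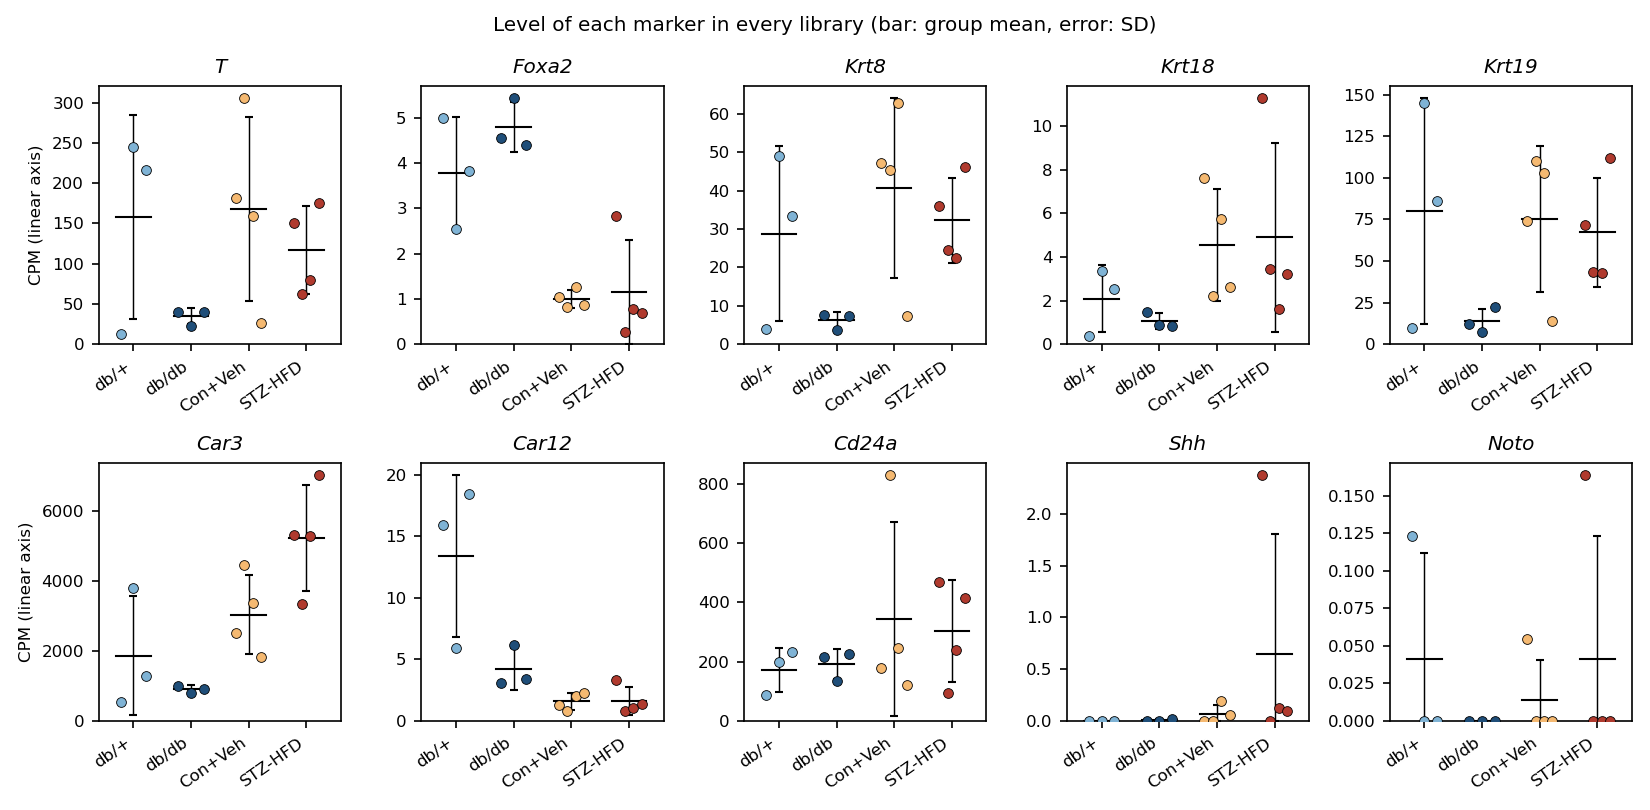
Level of each marker in CPM (vertical axis, linear, with a scale of its own in each panel) in the libraries of each group. Each point is a library, the bar is the group mean and the error bar is the SD, drawn down to 0 where it would pass below it (n = 3, 3, 4 and 4). *T* lies at 23.1 to 40.5 CPM in db/db, while db/+ spans 12.1 to 245 CPM.

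Per length, *Car3* was the highest of the markers, with a median of 1016 RPKM over the 14 libraries. *Cd24a* followed with a median of 85.8 RPKM, *T* with 49.6, *Krt19* with 30.9 and *Krt8* with 14.8 RPKM. *Krt18* (1.79 RPKM), *Foxa2* (0.803 RPKM) and *Car12* (0.349 RPKM) were low, and the medians of *Shh* and *Noto* were 0. *Car3* was above *Cd24a*, *T* above *Krt19*, *Krt19* above *Krt8* and *Krt8* above *Krt18* in 14 of 14 libraries each. The order of the other neighbors varied: *Cd24a* was above *T* in 11, *Krt18* above *Foxa2* in 10 and *Foxa2* above *Car12* in 12 of the 14 libraries.

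*T* (ENSMUSG00000062327) lies on chromosome 17 from 8434423 to 8442496 of GRCm38, plus strand. The db/+ discs held *T* at 12.1, 245 and 216 CPM in replicates 1, 2 and 3. The db/db discs held *T* at 40.5, 23.1 and 39.7 CPM. The db/db libraries thus lay close together and below 2 of the db/+ libraries, but above the third, so the groups overlapped. The means were 34.4 ± 9.84 (SD, n = 3) and 158 ± 127 CPM (SD, n = 3), and the log2 fold change fitted by limma was -1.37 (standard error 0.95, 95% confidence interval -3.37 to 0.63, adjusted p = 0.421). Its size rested on single db/+ libraries. It was -2.77 without db/+ replicate 1 (adjusted p = 0.0932), -0.61 without db/+ replicate 2 (adjusted p = 0.796) and -0.71 without db/+ replicate 3 (adjusted p = 0.741). It was -0.12 with the replicate number as a block and -0.04 with an adipocyte score as a covariate. Replicate numbers do not pair the mice. The adipocyte genes themselves had a median log2 fold change of 1.51 in db/db, so their score may take up part of the group difference. Both limits hold for the other genes given with these fits. In whole discs, fewer cells of a type and less RNA per cell cannot be told apart.

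Con+Veh discs held *T* at 181, 306, 159 and 26 CPM. STZ-HFD discs held it at 150, 62, 80 and 175 CPM, all inside the Con+Veh range. Con+Veh replicate 4 was the low library here. The means were 168 ± 115 (SD, n = 4) in Con+Veh and 117 ± 54.1 CPM (SD, n = 4) in STZ-HFD, while the fitted log2 fold change was 0.22 (standard error 0.81, interval -1.48 to 1.92, adjusted p = 0.92). The opposite sign of means and fit arises for *T*, *Krt8*, *Krt18*, *Krt19*, *Foxa2*, *Car12* and *Cd24a* in this model, where the fit weights libraries from 0.2745 (Con+Veh replicate 1) to 3.052 (Con+Veh replicate 3) by their scatter and works on the log scale. Without weights the value for *T* was -0.15, and without Con+Veh replicate 4 it was -0.74. No direction can therefore be read for *T* in STZ-HFD discs.

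Of the *T* reads that Salmon assigned to transcripts, T-201 took 83.6% of the sum over libraries, T-203 15.7% and T-202 0.72%. All of these encode protein. The share of T-201 ran from 67.2% to 94.6% between libraries.

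The windows before the start sites of *T*, *Krt8* and *Krt18* are shown because the first pair moved together between mice and *Krt18*, the filament partner of *Krt8*, followed less closely. Each is the 250 bases upstream of the RefSeq start on GRCm38.p6, printed 5′ to 3′ on the strand of the gene, at chr17:8434173-8434422 (plus strand), chr15:102004343-102004592 (minus strand) and chr15:102027966-102028215 (plus strand). Capitals mark AGGTGT, the core of the T-box element that brachyury is known to bind.
T: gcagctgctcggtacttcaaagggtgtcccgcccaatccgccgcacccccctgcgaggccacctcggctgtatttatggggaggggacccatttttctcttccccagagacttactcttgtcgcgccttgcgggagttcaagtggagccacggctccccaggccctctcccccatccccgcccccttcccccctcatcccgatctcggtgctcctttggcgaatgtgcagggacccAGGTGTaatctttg
Krt8: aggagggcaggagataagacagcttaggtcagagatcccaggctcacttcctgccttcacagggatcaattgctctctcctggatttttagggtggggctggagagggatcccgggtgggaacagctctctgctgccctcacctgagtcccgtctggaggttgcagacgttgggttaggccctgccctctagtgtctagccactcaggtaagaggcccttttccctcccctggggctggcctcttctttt
Krt18: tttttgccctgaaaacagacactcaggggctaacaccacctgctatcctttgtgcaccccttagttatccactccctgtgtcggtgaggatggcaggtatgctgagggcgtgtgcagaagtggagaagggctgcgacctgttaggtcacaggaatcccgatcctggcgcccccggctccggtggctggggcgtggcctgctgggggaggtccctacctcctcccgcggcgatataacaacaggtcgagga

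RefSeq windows were found for 6 of the 10 markers. AGGTGT, searched on both strands, occurred in the *T* window, starting 14 bases before the start site, and in no window of *Noto*, *Foxa2*, *Krt8*, *Krt18* or *Car12*. The same letters are in 11.8% of 32851 mouse promoter windows of this length. TGTTTAC, a core of the forkhead element, was in none of the marker windows and in 3.17% of all. The TATA box letters TATAAA were in 1 of the 3 *Foxa2* windows only, 208 bases upstream, and in 12.4% of all windows. A match is a description of letters, not a site in use.

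*Krt8* (ENSMUSG00000049382, chromosome 15 from 101996698 to 102004482, minus strand) encodes a keratin that pairs with keratin 18 in simple epithelial filaments. *Krt8* in db/+ discs was at 4.06, 49 and 33.4 CPM. *Krt8* in db/db discs was at 7.6, 3.7 and 7.37 CPM. As for *T*, db/+ replicate 1 was among the low libraries and the other db/+ libraries were above all of db/db. The log2 fold change was -1.73 (standard error 0.91, interval -3.65 to 0.18, adjusted p = 0.283), with -2.77 without db/+ replicate 1 (adjusted p = 0.0907), -1.04 without db/+ replicate 2 (adjusted p = 0.601) and -1.30 without db/+ replicate 3 (adjusted p = 0.494). With the replicate block it was -0.99 and with the adipocyte score -1.08. Con+Veh discs held *Krt8* at 47.3, 45.3, 62.9 and 7.39 CPM. STZ-HFD discs held it at 36.1, 24.5, 22.4 and 46.1 CPM. Again Con+Veh replicate 4 was the low one and the STZ-HFD values lay inside the control range, the log2 fold change being 0.01 (standard error 0.74, interval -1.55 to 1.57, adjusted p = 0.998). Means of 40.7 ± 23.6 in Con+Veh and 32.3 ± 11 CPM in STZ-HFD (SD, n = 4 each) have the opposite order. Reads of *Krt8* may be shared with the pseudogene *Krt8-ps*, which had 2.48% as many counts, and with *Gm36026*, which overlaps *Krt8* on the opposite strand and had 1.64% as many.

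*Krt19* (ENSMUSG00000020911, chromosome 11 from 100140810 to 100148665, minus strand) encodes the smallest simple epithelial keratin, widely used as a marker of NP cells. In db/+ discs *Krt19* was at 9.62, 145 and 86 CPM. In db/db discs *Krt19* was at 11.9, 7.24 and 22.1 CPM. The db/db mean of 13.8 ± 7.61 CPM stood against 80.3 ± 68 in db/+ (SD, n = 3 each), with overlap through db/+ replicate 1. The log2 fold change was -2.03 (standard error 0.92, interval -3.97 to -0.09, unadjusted p = 0.0411 and adjusted p = 0.219 by limma). It was -3.16 without db/+ replicate 1 (adjusted p = 0.071), -1.23 without db/+ replicate 2 (adjusted p = 0.531) and -1.60 without db/+ replicate 3 (adjusted p = 0.403), and it was -1.20 with the replicate block and -1.12 with the adipocyte score. In Con+Veh discs *Krt19* was at 73.9, 110, 103 and 14 CPM. In STZ-HFD discs *Krt19* was at 71.7, 43.1, 42.6 and 112 CPM. The highest STZ-HFD library passed the highest control by little and Con+Veh replicate 4 was below all others, and the log2 fold change was 0.25 (standard error 0.77, interval -1.38 to 1.88, adjusted p = 0.902). It was -0.66 without Con+Veh replicate 4. Nearly all transcript reads of *Krt19* were on Krt19-201, with at least 99.6% of them in each library.

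*Krt18* (ENSMUSG00000023043, chromosome 15 from 102028180 to 102032027, plus strand) lies 23697 bases from *Krt8*. It was far lower than its partner, at 0.39, 3.34 and 2.53 CPM in db/+ and 1.48, 0.861 and 0.848 CPM in db/db. The db/db libraries lay between db/+ replicate 1 and the other db/+ libraries. The log2 fold change was -0.68 (standard error 0.72, interval -2.20 to 0.85, adjusted p = 0.627), and it was -1.48, -0.15 and -0.30 without db/+ replicate 1, 2 and 3 in turn. In Con+Veh *Krt18* was at 7.61, 2.22, 5.73 and 2.61 CPM. In STZ-HFD *Krt18* was at 11.3, 3.44, 1.62 and 3.24 CPM. Its highest value is in STZ-HFD replicate 1, the library with counts on most receptor genes, and whether this moved *Krt18* was not tested. The log2 fold change in STZ-HFD was -0.58 (standard error 0.57, interval -1.79 to 0.63, adjusted p = 0.651), which edgeR and DESeq2 put at 0.11 and 0.13. It was -0.81 without STZ-HFD replicate 1, -0.12 without Con+Veh replicate 3 and -0.06 without STZ-HFD replicate 3. Counts on the *Krt18* gene were 5.09 times those on its transcript (2.22 to 13 times by library), against a median of 3.18 times over 7625 genes, whose percentiles 5 and 95 were 1.78 and 8.06 times.

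The ratios per length show how closely these genes moved together. *T* was 2.13 to 5.71 times *Krt8* over the 14 libraries, a range of 2.68-fold, although *T* itself spanned 25.2-fold. *Krt19* was 1.65 to 3.17 times *Krt8*, a range of 1.92-fold, with *Krt19* spanning 20.1-fold and *Krt8* 17-fold. The ratio of *T* to *Krt19* ran from 1.01 in db/+ replicate 1 to 2.72 in db/db replicate 1. Both low control libraries had the fewest counts of their group, db/+ replicate 1 with 46252923 (50964167 in the deepest) and Con+Veh replicate 4 with 23173075 (58943169 in the deepest). The next in depth were not low. With 47267983 counts, db/+ replicate 3 held *T* at 216 CPM, against 12.1 in replicate 1. With 27915536 counts, Con+Veh replicate 3 held *Krt8* at 62.9 CPM, against 7.39 in replicate 4. In db/db the library with the fewest counts, replicate 2 with 43397872, was the lowest for *T*, *Krt8* and *Krt19*, while in STZ-HFD replicate 1, with the fewest at 16076908, was the lowest for 0 of the 8 tested markers. The part of depth in these levels was not tested. *Krt8* was 2.08 to 15 times *Krt18*, a range of 7.19-fold. The ratios of *Car3*, *Cd24a*, *Foxa2* and *Car12* to *Krt8* spanned 6.49-fold, 9.51-fold, 131-fold and 237-fold. These values are descriptions over libraries that share the 4 groups, with no test.

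**Figure D2:**
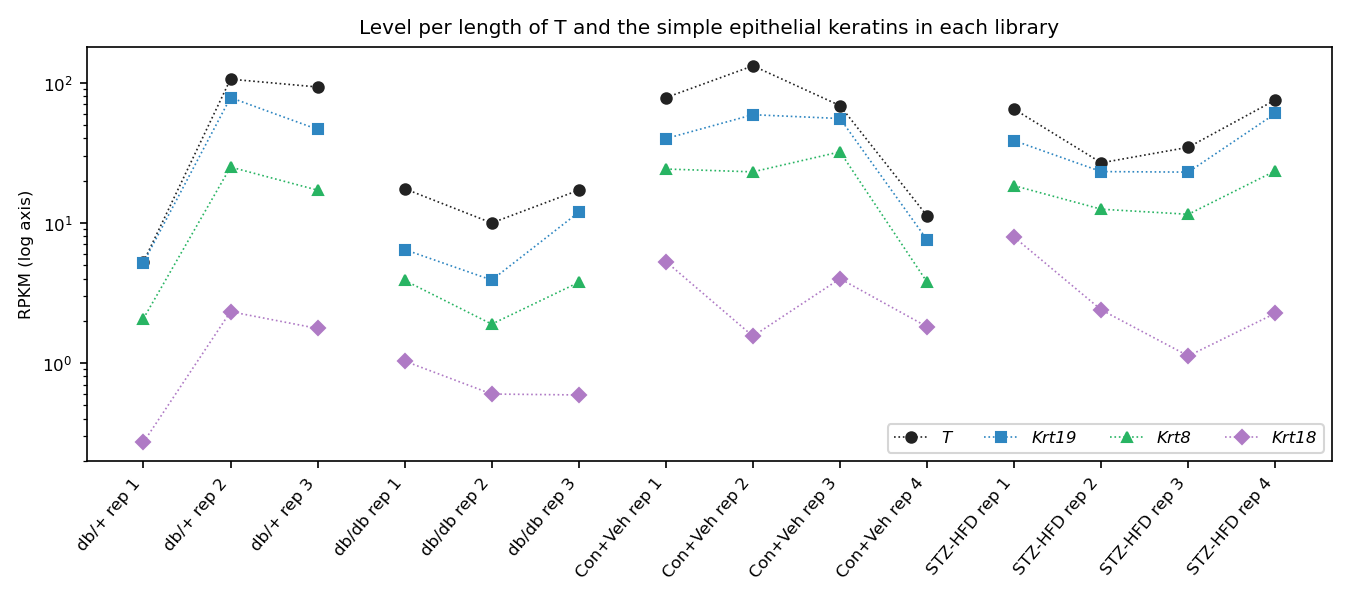
Level per length in RPKM (vertical axis, log scale) of *T*, *Krt19*, *Krt8* and *Krt18* in each of the 14 libraries, ordered by group, with dotted lines joining libraries of a group only to guide the eye. The curves of *T*, *Krt19* and *Krt8* are low together in db/+ replicate 1, the db/db libraries and Con+Veh replicate 4. Smaller steps differ: from Con+Veh replicate 2 to 3, *T* went from 132 to 68.6 RPKM while *Krt8* went from 23.1 to 32.1.

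Within groups, db/+ replicate 1 was the lowest of 3 for 6 of the 8 tested markers (*T*, *Krt8*, *Krt18*, *Krt19*, *Car3* and *Cd24a*). Con+Veh replicate 4 was the lowest of 4 for 5 (*T*, *Krt8*, *Krt19*, *Car3* and *Cd24a*), STZ-HFD replicate 2 for 5 (*T*, *Foxa2*, *Car3*, *Car12* and *Cd24a*), and db/db replicate 2 of 3 for 5 (*T*, *Krt8*, *Krt19*, *Car3* and *Cd24a*). In db/+ replicate 1 the summed desmosome and other simple keratin genes (12 genes) were also lowest of their group, at 119 CPM against 172 and 182, as were cartilage genes at 14025 CPM against 16164 and 24142. Its 15 skeletal muscle genes summed to 8562 CPM, between the other db/+ libraries at 5085 and 9864. In Con+Veh replicate 4 the cartilage genes were the highest of the group at 3231 CPM, and the desmosome and keratin genes the lowest at 135 CPM. The part of these other cell types in the marker levels was not tested.

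*Foxa2* (ENSMUSG00000037025, chromosome 2 from 148042877 to 148046969, minus strand) encodes a forkhead factor needed to form the notochord. The db/+ discs held *Foxa2* at 4.99, 2.54 and 3.82 CPM. The db/db discs held *Foxa2* at 4.56, 5.43 and 4.4 CPM. It did not follow *T* and the keratins: db/+ replicate 1, their low library, was the highest of the db/+ libraries for *Foxa2*. The log2 fold change was 0.43 (standard error 0.27, interval -0.14 to 1.01, adjusted p = 0.378). In the second cohort *Foxa2* was near the limit of the filter, at 1.03, 0.81, 1.27 and 0.869 CPM in Con+Veh. In STZ-HFD it was at 2.84, 0.275, 0.777 and 0.684 CPM, with the highest value in replicate 1. There the log2 fold change was -0.60 (standard error 0.59, interval -1.85 to 0.65, adjusted p = 0.65). *Foxa2* had 1828 counts over the 14 libraries.

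*Noto* (ENSMUSG00000068302, chromosome 6 from 85423886 to 85428877, plus strand), a homeobox gene of the node and early notochord, had 12 counts in all. Of these, 6 were in db/+ replicate 1, 2 in Con+Veh replicate 1 and 4 in STZ-HFD replicate 1, and 11 libraries had 0. A library with 0 counts allows a level of up to 0.0509 to 0.129 CPM by library total, the level of 3 counts, counting error only. *Shh* (ENSMUSG00000002633, chromosome 5 from 28456815 to 28467256, minus strand), which encodes a secreted hedgehog ligand, had 71 counts, of which 58 were in STZ-HFD replicate 1. The other STZ-HFD libraries had 0, 4 and 3 counts, the Con+Veh libraries 0, 0, 4 and 1, the db/db libraries 0, 0 and 1, and the db/+ libraries 0, 0 and 0. STZ-HFD replicate 1 is again the library with counts on 84.9% of the receptor genes, and without it *Shh* had at most 4 counts in any library. *9530036O11Rik*, which overlaps *Shh* on the opposite strand, had 32 counts in all, and whether counting used the strand is not stated. No fold change is given for *Shh* or *Noto*.

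Although *Shh* was at this low level, the 15 other genes listed for the hedgehog pathway all passed the filter, among them the ligand genes *Ihh* and *Dhh*. In db/db discs, 0 of 15 were called by limma (lowest adjusted p = 0.0752) and the median log2 fold change was -0.22, beside -0.04 over all genes. In STZ-HFD discs 4 of 15 fell and 0 rose, with a median of -0.74 beside -0.04. The called genes were the transcriptional effector *Gli2* (from 59.3 ± 27.3 to 22.8 ± 7.22 CPM, log2 fold change -1.15), the signal transducer *Smo* (from 36.7 ± 8.07 to 18.2 ± 3.22 CPM, -1.10), and the hedgehog co-receptors *Boc* (from 54.7 ± 17.3 to 27.6 ± 14.3 CPM, -1.12) and *Cdon* (from 104 ± 6.65 to 49.5 ± 15.7 CPM, -1.07). Their adjusted p-values were 0.0208 to 0.0358 (limma, n = 4 each). In that model 1.31% of all tested genes were called lower and 1.3% higher. edgeR's quasi-likelihood test and the fit without weights called 0 of the 15 lower and DESeq2 called 3, and 0 were called without Con+Veh replicate 3, Con+Veh replicate 4 or STZ-HFD replicate 3, 1 without STZ-HFD replicate 4, 2 without STZ-HFD replicate 2. With the skeletal muscle score as a covariate 1 was called. Lists of other disc and bone cells held lower calls in the same comparison, 4 of 14 tested cartilage genes (median -1.17), 3 of 9 annulus and tendon genes (median -0.82) and 2 of 8 osteoblast and osteocyte genes (median -0.79). edgeR called 0 of each list, DESeq2 3, 2 and 0, the fit without quality weights 1, 0 and 0, and the fit with the muscle score 0, 2 and 0. Without Con+Veh replicate 2 and STZ-HFD replicate 4 together these lists had 4, 1 and 2 calls, and the hedgehog list 2. Without Con+Veh replicate 3 or 4 or STZ-HFD replicate 3 none of the 3 lists had a call, without STZ-HFD replicate 4 the annulus list had 1 and the bone list 0, and without Con+Veh replicate 2 there were 8 cartilage calls. The part of these cells in the hedgehog genes and in *Pax1*, given further on, was not tested. In the test of the difference between the models none of the 4 was called (adjusted p = 0.182 to 0.729).

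*Car3* (ENSMUSG00000027559, chromosome 3 from 14863512 to 14872523, plus strand) encodes a carbonic anhydrase used as an NP marker and also abundant in skeletal muscle and fat. *Car3* in db/+ discs was at 519, 3785 and 1276 CPM. *Car3* in db/db discs was at 1002, 792 and 909 CPM. The db/db libraries lay between the lowest and the middle db/+ library, and the log2 fold change was -0.66 (standard error 0.52, interval -1.76 to 0.44, adjusted p = 0.492). It ran from -1.29 without db/+ replicate 1 to 0.15 without db/+ replicate 2, so it has no stable direction. In Con+Veh *Car3* was at 2500, 4442, 3349 and 1832 CPM. In STZ-HFD *Car3* was at 5293, 3321, 5271 and 7036 CPM. Of the 4 STZ-HFD libraries, 3 were above every control, and the log2 fold change was 0.98 (standard error 0.47, interval -0.01 to 1.97, adjusted p = 0.288). The two-sided exact permutation test gave p = 0.0857, where the smallest it can give is 0.0286. It kept its direction when any library was left out (0.66 to 1.28).

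Genes of skeletal muscle and fat, where *Car3* is also abundant, are given beside it, and their part in its level was not tested. Of 15 skeletal muscle genes tested, 8 were called higher in STZ-HFD (median log2 fold change 1.13, all 15 above 0), and their summed level was 10607 to 26173 CPM there against 9047 to 12058 in Con+Veh. DESeq2 called 4 of the 15, and edgeR and the fit without quality weights 0. The fit with a skeletal muscle score as a covariate also called 0. That score is the mean standardized level of these same 15 genes, so this fit is no test of them. The number was 0 without Con+Veh replicate 3 or STZ-HFD replicate 3, 1 without Con+Veh replicate 4 or STZ-HFD replicate 4, 4 without STZ-HFD replicate 2, and 1 without Con+Veh replicate 2 and STZ-HFD replicate 4 together. In db/db, 1 of 15 was called lower (median -0.90), with 3288 to 5549 CPM in db/db and 5085 to 9864 in db/+. That call was lost by edgeR, without quality weights, with the adipocyte score as a covariate and without db/db replicate 2 or 3 or db/+ replicate 1 or 2. It was also lost with the muscle score, which includes the called gene and so is no test of it. Among all tested genes, 1.23% were called higher and 0.432% lower in db/db. Of 10 adipocyte genes, 1 was called higher in STZ-HFD (median 0.64) and 5 in db/db (median 1.51), and their sums were 1261 to 1763 CPM in STZ-HFD, 694 to 1203 in Con+Veh, 614 to 1155 in db/db and 293 to 615 in db/+. edgeR and the fit without quality weights called 0 of the adipocyte genes in either model. The call in STZ-HFD was also lost with the muscle score, without Con+Veh replicate 3 or 4, without STZ-HFD replicate 3 or 4, and without Con+Veh replicate 2 and STZ-HFD replicate 4 together. The number in db/db fell to 3 with the muscle score, 0 without db/+ replicate 2, 1 without db/+ replicate 3 or db/db replicate 2, 2 without db/db replicate 1 and 3 without db/db replicate 3. No muscle or adipocyte gene of the lists was at 0 in all libraries of a group. With a skeletal muscle score as a covariate the log2 fold change of *Car3* in STZ-HFD was 0.84 (adjusted p = 0.543), and with an adipocyte score 1.15 (adjusted p = 0.572). STZ-HFD replicate 1 had *Car3* at 5293 CPM with muscle genes at 10607 CPM, while replicates 2 to 4 had muscle genes at 23425 to 26173 CPM. Replicate 2, with muscle genes at 24133 CPM, had the lowest *Car3* of the group at 3321 CPM.

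In the transcript table, Car3-201, which encodes the protein, took 61% of the *Car3* reads and Car3-203, a transcript with a retained intron, took 38.1%. The Car3-203 share was 14.4% to 35.4% in STZ-HFD, 30.4% to 51.2% in Con+Veh, 30.1% to 47.7% in db/db and 30.5% to 62.2% in db/+. These ranges overlap within each model, and the lowest share was that of STZ-HFD replicate 1.

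*Car12* (ENSMUSG00000032373, chromosome 9 from 66713686 to 66766845, plus strand) encodes a membrane carbonic anhydrase that works outside the cell. In db/+ discs *Car12* was at 15.9, 5.88 and 18.4 CPM. In db/db discs *Car12* was at 3.07, 6.16 and 3.39 CPM. Only db/+ replicate 2 came down to the db/db values, where db/+ replicate 1, low for *T* and the keratins, was high. *Car12* had the lowest adjusted p of the markers by limma and DESeq2, though not by edgeR, with means of 4.21 ± 1.7 and 13.4 ± 6.63 CPM (SD, n = 3 each), a log2 fold change of -1.49 (standard error 0.40, interval -2.32 to -0.65, unadjusted p = 0.00154, adjusted p = 0.0566 by limma). It was not called, but passed the threshold without db/+ replicate 2 (-2.09, adjusted p = 0.0219) or Con+Veh replicate 2 (-1.49, adjusted p = 0.0493) and with the skeletal muscle covariate (-2.33, adjusted p = 0.0203). Over its alternatives the adjusted p ran from 0.000357 to 0.389. In the second cohort *Car12* was at 1.28, 0.748, 2.02 and 2.23 CPM in Con+Veh. STZ-HFD discs held 3.29, 0.791, 1.06 and 1.37 CPM, and the log2 fold change was -0.50 (standard error 0.72, interval -2.02 to 1.03, adjusted p = 0.774). *Car12* gene counts were 9.07 times its transcript counts (4.2 to 41 by library). Of the transcript reads, 58.9% were on Car12-205, which retains an intron. Other transcripts with a retained intron took 20.5% and 19.2%. The only listed transcript that encodes protein took 1.3%, with 5.01 estimated counts, and was at 0 in 13 of the 14 libraries. The level of spliced *Car12* mRNA is thus poorly known.

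Of 14 other carbonic anhydrase genes, 8 passed the filter. None was called in db/db (0 of 8, limma, lowest adjusted p = 0.278). The mitochondrial *Car5a* fell in STZ-HFD, from 144 ± 160 to 14 ± 9 CPM (SD, n = 4 each, log2 fold change -3.60, adjusted p = 0.0208). The control level rested on 2 libraries, with *Car5a* at 10.3 and 5.44 CPM in Con+Veh replicates 1 and 2 and 247 and 313 CPM in replicates 3 and 4, and the groups overlapped, since STZ-HFD discs held 1.56, 18.7, 22.1 and 13.5 CPM. The endothelial sum was also high in Con+Veh replicates 3 and 4, at 879 and 908 CPM against 209 and 231, of which the receptor gene *Kdr* took 649 and 582 CPM, and its part in *Car5a* was not tested. The call was lost by edgeR and DESeq2, without quality weights, with either score as a covariate, and without Con+Veh replicate 3 or 4 or STZ-HFD replicate 3 or 4. It was also lost with each model fitted alone, with either of the other filters on low counts and with the replicate block. In these fits the log2 fold change ran from -4.48 (adipocyte score) to -2.17 (without quality weights). Over the 8 genes the median was 0.01 for db/db and -0.08 for STZ-HFD.

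*Cd24a* (ENSMUSG00000047139, chromosome 10 from 43578284 to 43584265, plus strand) encodes the CD24 surface protein, also present on many blood and epithelial cells. The db/+ discs held *Cd24a* at 88.1, 197 and 232 CPM. The db/db discs held *Cd24a* at 217, 133 and 226 CPM, all inside the db/+ range. The log2 fold change was 0.25 (standard error 0.54, interval -0.89 to 1.39, adjusted p = 0.832). In Con+Veh *Cd24a* was at 179, 833, 245 and 119 CPM. In STZ-HFD *Cd24a* was at 469, 92.7, 238 and 414 CPM. Con+Veh replicate 2 was far above the rest, and the log2 fold change was 0.35 (standard error 0.45, interval -0.59 to 1.29, adjusted p = 0.739). Markers of other cells that carry CD24 were measured beside it: 7 B cell genes summed to 6.6 to 51 CPM, 7 neutrophil genes to 0.643 to 18.2 CPM and 7 erythroid genes to 19.6 to 71.2 CPM over the libraries, and db/db replicate 2, the lowest db/db library for *Cd24a*, had the highest B cell and neutrophil sums of its group. Their part in *Cd24a* was not tested. Of these lists 4, 2 and 3 genes were tested and 0 were called in either model (lowest adjusted p by limma 0.191). The 12 epidermal genes summed to 14.6 to 36.8 CPM, and 0 of the 4 tested were called (lowest adjusted p 0.276), with *Krt5* at 0 in all db libraries. Of 7 endothelial genes, summing to 156 to 908 CPM, 0 were called in either model, although the lowest adjusted p was 0.0376 in db/db, at a fold change under the limit for a call.

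**Figure D3:**
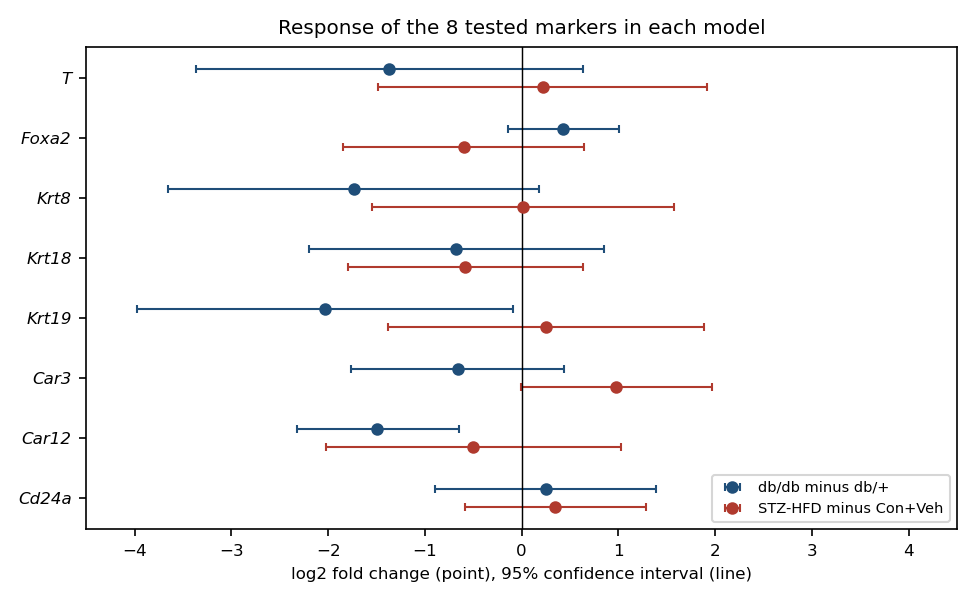
Log2 fold change (horizontal axis) of each of the 8 tested markers in db/db against db/+ and in STZ-HFD against Con+Veh, with the 95% confidence interval from limma as a line. The intervals cross 0 except for *Krt19* (-3.97 to -0.09) and *Car12* (-2.32 to -0.65) in db/db, and none of the 8 markers was called in either model.

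Set against all genes, limma called 0 of 8 markers in db/db, where 1.66% of tested genes were called, and 0 of 8 in STZ-HFD, where 2.61% were. At an unadjusted p under 0.05 there were 2 of 8 in db/db (*Krt19* and *Car12*), beside 21.1% of all genes, and 0 of 8 in STZ-HFD, beside 17.9%. edgeR's quasi-likelihood test and DESeq2 also called 0 of 8 in each model, with 4 and 5 markers at an unadjusted p under 0.05 for db/db, beside 11.2% and 12.6% of all genes, and 0 for STZ-HFD by both, beside 12.6% and 13.9%. The libraries of the groups were apart for 0 of 8 markers in both models, beside 25.8% of all genes for db/db and 4.74% for STZ-HFD. For db/db the markers had a median log2 fold change of -1.02, with 6 of 8 below 0, beside a median of -0.04 over all genes. For STZ-HFD it was 0.11 beside -0.04.

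The responses of the models were compared by the difference of the fold changes, for which 0 of 8 markers were called beside 1.77% of all genes, with 0 also by edgeR and DESeq2. *Car3* had the lowest p by limma, a difference of 1.64 (standard error 0.70, interval 0.15 to 3.12, unadjusted p = 0.0326, adjusted p = 0.235 by limma). With a library left out this difference ran from 0.82 to 2.26. *Car3* was the 1 marker with an unadjusted p under 0.05 by limma, beside 17.3% of all genes. By edgeR and by DESeq2 there were 3 such markers (*Krt19*, *Car3* and *Car12*), beside 11.8% and 13% of all genes. In the same test 9 of the 15 skeletal muscle genes were called higher (median difference 2.17, all 15 above 0), and their part in the *Car3* difference was not tested. DESeq2 called 8 of the 15, and edgeR and the fit without quality weights 0. The fit with the muscle score, made from these same genes, also called 0 and is no test of them. With a library left out the number ran from 0 (Con+Veh replicate 3) to 13 (STZ-HFD replicate 1). It was 1 without db/db replicate 3, db/+ replicate 2 or STZ-HFD replicate 3, 2 without db/db replicate 2 or db/+ replicate 1, 4 without Con+Veh replicate 4 or STZ-HFD replicate 4, and 5 without STZ-HFD replicate 2. *Krt19* differed by 2.28 (standard error 1.20, interval -0.25 to 4.82, adjusted p = 0.347), and by 1.39 to 3.41 with a library left out. The intervals leave room for differences of several fold, so the data do not show that the models act alike on these genes.

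**Figure D4:**
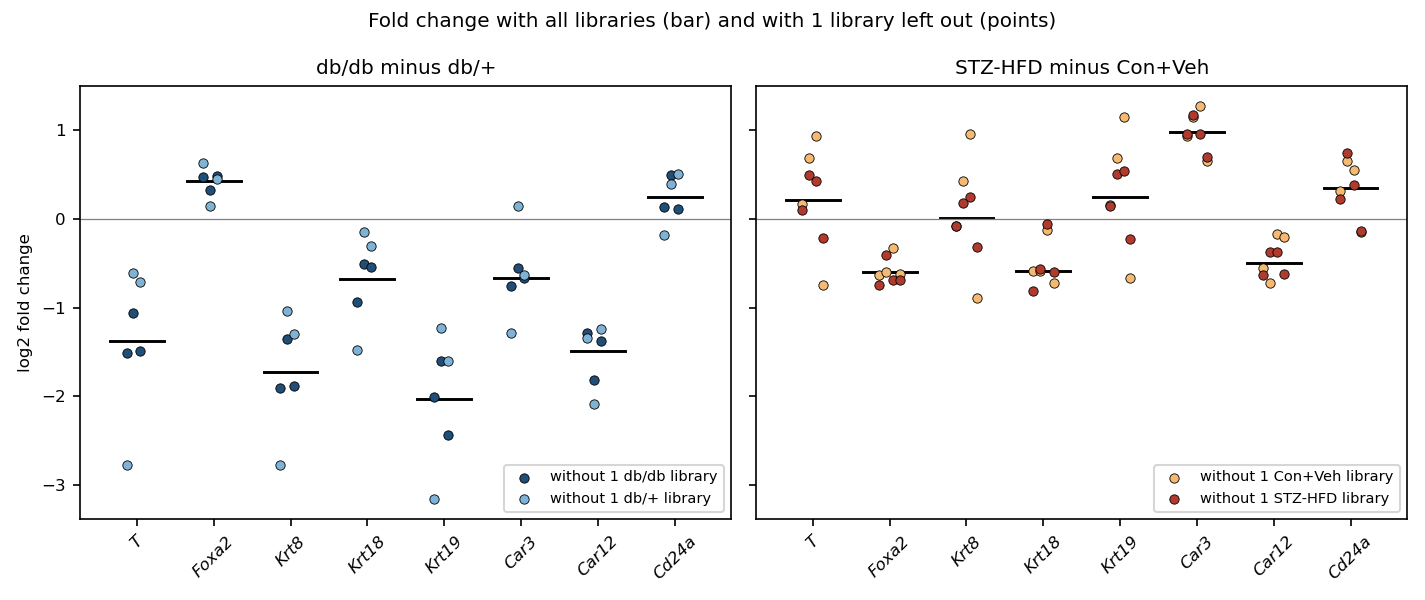
Log2 fold change (vertical axis) of each tested marker in db/db (left) and STZ-HFD (right), with all libraries (bar) and with 1 library of either compared group left out (points, colored by the group of that library). In db/db, leaving out db/+ replicate 1 gave the lowest values for *T* (-2.77), *Krt8* (-2.77) and *Krt19* (-3.16), and in STZ-HFD the points of these genes fall on both sides of 0.

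Of 23 further genes listed for NP or notochord, all were tested. In db/db 1 was called, the angiopoietin receptor gene *Tek*, which rose from 11.2 ± 1.18 to 28.3 ± 3.52 CPM (log2 fold change 1.31, standard error 0.20, adjusted p = 0.0115, limma), and which endothelial cells also express. The 7 endothelial genes summed to 240 to 309 CPM in db/db and 156 to 229 in db/+, without overlap, with a median log2 fold change of 0.48 and 0 called. In the test of the difference between the models 1 of the 7 was called lower, *Emcn*, which encodes the endothelial sialomucin endomucin (-1.40, adjusted p = 0.0204, limma). That call was lost by edgeR, without quality weights, with either score as a covariate, with the GC trend removed and with the replicate block. It was lost too without Con+Veh replicate 2 and STZ-HFD replicate 4 together, and without db/+ replicate 2, Con+Veh replicate 3 or STZ-HFD replicate 3. In these fits the difference was -1.40 to -1.03. The part of endothelial cells in *Tek* was not tested. In STZ-HFD 1 was called, *Pax1*, a transcription factor of the sclerotome that builds the spine, which fell from 32.6 ± 11.3 to 10.4 ± 2.16 CPM (log2 fold change -1.86, standard error 0.37, adjusted p = 0.0134, limma). Both responses differed between the models (adjusted p = 0.03 for *Tek* and 0.0459 for *Pax1*, limma), where 0.816% of all tested genes were called lower and 0.952% higher in STZ-HFD than in db/db. DESeq2 made both within-model calls and edgeR neither. That of *Tek* held with any library left out. It was lost with the adipocyte score as a covariate, where the log2 fold change was 1.49. With gene totals from transcripts it was lost and the direction turned, to -1.32. The call of *Pax1* was also lost without quality weights (log2 fold change -1.58), with the adipocyte score (-1.56) and with the muscle score (-1.12). Gene totals from transcripts (-1.81), no filter on low counts (-1.76) and the replicate block (-1.81) lost it as well. It was lost too without Con+Veh replicate 3 (-1.71) or 4 (-1.69) or STZ-HFD replicate 3 (-1.83), where none of the 23 was called lower in STZ-HFD. Without Con+Veh replicate 1 or STZ-HFD replicate 1 or 4 there were 2 such calls. Neither difference between the models was called without db/db replicate 3, db/+ replicate 1 or 2, Con+Veh replicate 3 or 4 or STZ-HFD replicate 3 or 4. That of *Tek* was also lost without db/db replicate 1, and that of *Pax1* without db/db replicate 2 or STZ-HFD replicate 2. DESeq2 called both differences. Neither was called by edgeR, without quality weights, with either score or with the replicate block. The fit without Con+Veh replicate 2 and STZ-HFD replicate 4 together also called neither. With gene totals from transcripts neither was called, and that of *Tek* turned from -1.24 to 2.46. Over the 23 genes the median was -0.10 for db/db and -0.64 for STZ-HFD, beside -0.04 over all genes in each. Of 12 genes listed for desmosomes and other simple epithelial keratins, 10 were tested and 0 called in either model (lowest adjusted p 0.134 and 0.16, limma), and medians of -0.86 (db/db) and -0.09 (STZ-HFD). The desmosome plaque gene *Dsp* went from 34.2 ± 24 in db/+ to 10.1 ± 2.63 CPM in db/db (log2 fold change -1.36, adjusted p = 0.341) and was at 59.1 ± 32.8 in Con+Veh and 51.8 ± 22.7 CPM in STZ-HFD. *Jup*, which encodes plakoglobin, had log2 fold changes of -0.33 and -0.32.

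Genes whose deviations from the group mean were most like those of the markers were ranked by Pearson's r with the mean standardized deviation of the 8 tested markers, over the 14 libraries. The 8 highest were *Mc2r* (r = 0.969), *Lmx1a* (0.942), *Plet1* (0.942), *Fam135b* (0.939), *Zbtb8b* (0.937), *Gm37583* (0.932), *Lypd6b* (0.927) and *Ptgs1* (0.923). *Lmx1a* encodes a homeodomain transcription factor, *Ptgs1* the cyclooxygenase COX-1 and *Mc2r* the receptor for adrenocorticotropic hormone. These r are descriptions chosen as the highest of all tested genes. The libraries are shared by every gene, and of the 8 genes 7, all but *Plet1*, had their highest STZ-HFD level in replicate 1, the library with counts on most receptor genes (20.4 CPM for *Lmx1a* and 306 CPM for *Ptgs1*). Without that library, a setting chosen after seeing the data, r was 0.961 for *Mc2r*, 0.943 for *Plet1*, 0.932 for *Lmx1a*, and 0.878 for *Ptgs1*, the lowest of the 8. Among the markers themselves, *T* had r = 0.896, *Krt8* 0.866 and *Krt19* 0.864 with this mean, of which each is a part, while *Foxa2* had 0.398 and *Car12* 0.0648.

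*Plet1* showed the pattern at moderate level. It was at 6.48, 64.5 and 57.1 CPM in db/+ and at 11.2, 5.27 and 10.9 CPM in db/db. In Con+Veh it was at 40.5, 73.1, 45 and 5.65 CPM, low in replicate 4 as *T* was. *Lmx1a* was at 0.698, 10.4 and 6.12 CPM in db/+ and 2.91, 2.11 and 3.05 CPM in db/db. *Mc2r*, which headed the ranking, had opposite group levels, at 0.143 ± 0.127 CPM in db/+ and 1.74 ± 0.437 in db/db (SD, n = 3 each), since only deviations within groups enter r. None of the 8 genes was called in either model (limma, lowest adjusted p 0.0566).

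**Figure D5:**
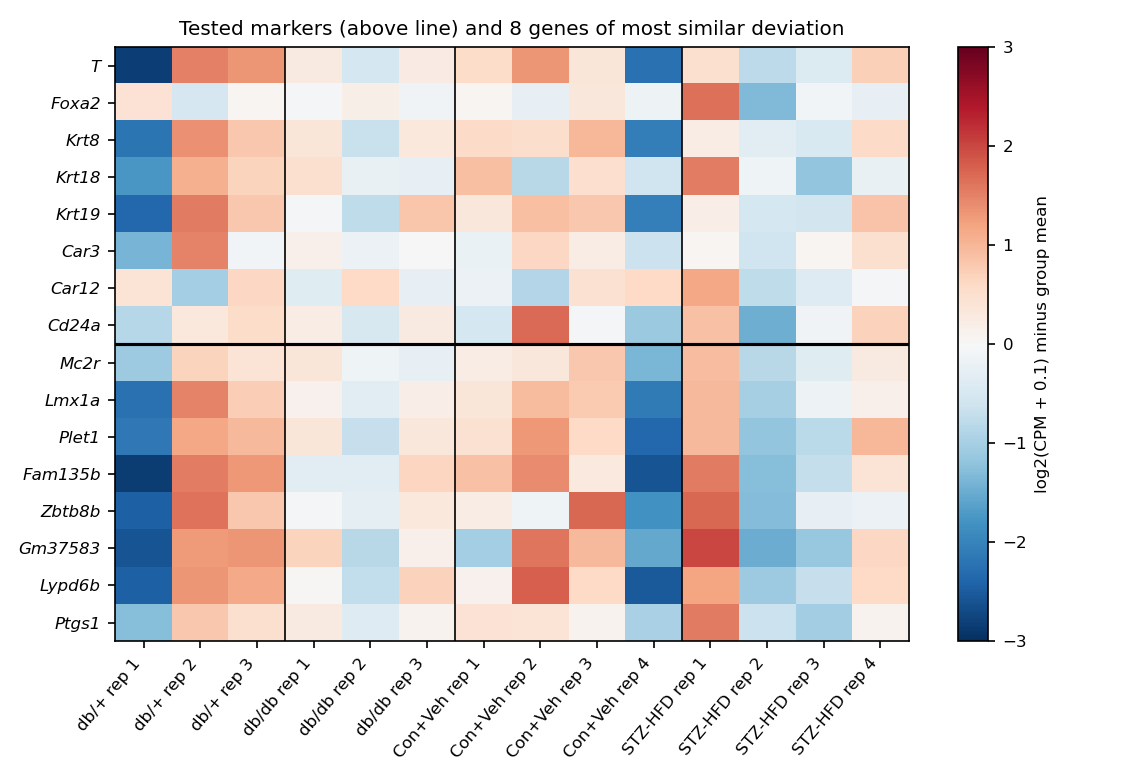
Deviation of log2(CPM + 0.1) from the group mean (color, limits at 3 on the log2 scale) for the 8 tested markers (above the line) and the 8 genes ranked nearest to them (below), in each library of the 4 groups (columns). *T*, *Krt8*, *Krt19* and the genes below the line are under their group mean (blue) in db/+ replicate 1 and Con+Veh replicate 4, while *Car12* is above it in both.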

How the data were processed

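RNA of caudal discs was amplified with SeqPlex and sequenced on a NovaSeq X Plus. The authors aligned reads with STAR to Ensembl release 101 (GRCm38), counted them per gene with featureCounts, estimated transcripts with Salmon, and deposited both tables without normalization. The strand setting of counting is not given in the sources used here. The gene table holds whole-number counts deposited by the authors, 55774 lines of which 287 repeat an identifier, leaving 55487 genes. The transcript table holds estimated counts deposited by the authors for 109383 transcripts, rounded after summing per gene and used for transcript shares and 1 alternative. Positions and exon lengths for RPKM are from GENCODE M21, and promoter sequences from RefSeq.

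With R 4.3.3, edgeR 4.0.16 and limma 3.58.1, genes above 1 CPM by library total in at least 3 libraries were kept (16915). voomWithQualityWeights with TMM factors was fitted to all 14 libraries with 4 group means, following the test named in the study's methods. A gene was called, and "rose" or "fell" written, when the Benjamini-Hochberg adjusted p was under 0.05 and the log2 fold change was 1 or more in either direction. Scaled by library total alone instead of TMM, 7 of 40 marker group means moved by more than their SD, 6 of them in db/db, where for example *T* was 46 in place of 34.4 CPM and *Foxa2* 6.66 in place of 4.8. Exact permutation tests were two-sided. Depth limits precision as given for counts of 0. Groups and replicate numbers come from the labels. Each library is a mouse. Named genes were all markers, per other list the called genes of either model (up to 4 by absolute log2 fold change, else the 2 highest), and the 8 nearest genes. Genes so chosen from the annulus, cartilage, bone, skeletal muscle, adipocyte, B cell, neutrophil, erythroid, epidermal and endothelial lists are not named. Counts of calls, sums, medians or lowest adjusted p-values are given for those lists. *9530036O11Rik*, *Gm36026*, *Krt8-ps*, *Krt5*, *Emcn* and *Kdr* were added after their values were seen. *Ihh* and *Dhh* are named only as genes of the hedgehog list. The members and lists were chosen with earlier results of these data known.

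Alternatives were DESeq2 1.42.0, edgeR's quasi-likelihood test, no quality weights, RLE size factors, other filters, each model alone, a replicate block, transcript totals, no ribosomal RNA genes, GC correction over 20 bins, muscle or adipocyte scores as covariates, and libraries left out.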

Additional observations from a re-analysis of the deposited data

Results flagged for a closer look

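In 20 sets of 4 libraries (a marker in a group of the second cohort), the highest or lowest library was compared with the spread of its group by Dixon's criterion on the log2 and the CPM scale, which chance meets in about 1 of 20 on each scale. *Krt8* in Con+Veh replicate 4 was at 7.39 CPM, with 0.846 of the group's range on the log2 scale between it and the next library. On the CPM scale this share was 0.682, short of the criterion. *Shh* in STZ-HFD replicate 1, at 2.38 CPM (58 counts), met it on the CPM scale (0.948) but not on the log2 scale (0.67). *Noto* in Con+Veh replicate 1 was at 0.0543 CPM (2 counts) and in STZ-HFD replicate 1 at 0.164 CPM (4 counts), in each case with 0 counts in the other 3 libraries, so these levels rest on a few reads.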

How the results depend on the processing

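The 8 tested markers gave 537 values under alternatives, fold changes in both models and, for *Krt19* and *Car3* only, differences of the responses. Of these, 491 kept direction and side of the threshold, 42 changed sign and 4, all of *Car12* in db/db, became calls. Some settings could hardly turn a sign. Dropping the minimum fold change leaves the value as fitted, and leaving out a library of the other cohort put *T* in db/db at -1.39 to -1.35. The number of markers called in db/db was 1 with the replicate block (*Car12*, -1.93, adjusted p = 0.000357) and with the skeletal muscle score as a covariate, and 0 to 1 when a library was left out. The cause was not tested. In STZ-HFD and in the difference of the responses it was 0 under each alternative.

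The replicate block rests on numbers that do not pair the mice. Deviations of same-numbered libraries correlated at a mean r of -0.091 in the db cohort (3 pairs, other pairs 0.0458) and -0.111 in the other (4 pairs, other pairs 0.0376). For db/db the block called 1484 genes against 281 without it, and for STZ-HFD 6 against 441.

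Signs that changed in db/db: with the adipocyte score, *Foxa2* -0.27 and *Krt18* 0.36. With the replicate block, *Car3* 0.09. For *Cd24a*, -0.02 with the GC trend removed, -0.31 with the muscle score, and -0.19 without STZ-HFD replicate 1 and db/+ replicate 1 together, a setting chosen after seeing the data. With a library left out, *Car3* ran from -1.29 to 0.15 and *Cd24a* from -0.18 to 0.51.

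Signs that changed in STZ-HFD, by edgeR and DESeq2: *T* -0.53 and -0.51, *Foxa2* 0.19 and 0.21, *Krt8* -0.34 and -0.32, *Krt18* 0.11 and 0.13, *Krt19* -0.16 and -0.14, *Car12* 0.07 and 0.09, *Cd24a* -0.18 and -0.16. Without quality weights, *T* was -0.15, *Krt8* -0.06 and *Car12* 0.12. With no filter on low counts, *T* was -0.10, *Krt8* -0.07 and *Cd24a* 0.00. With the muscle score, *Krt18* was 0.53 and *Car12* 0.71, and with the adipocyte score *Krt18* was 0.20. Without STZ-HFD replicate 1 and db/+ replicate 1 together, *Krt8* was -0.10. With a library left out, *T* ran from -0.74 to 0.94, *Krt8* from -0.89 to 0.96, *Krt19* from -0.66 to 1.15 and *Cd24a* from -0.15 to 0.75.

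Counts called over all genes varied more. In db/db they were 0 by edgeR (1891 at an unadjusted p under 0.05), 212 by DESeq2, 9 without quality weights and 0 with the adipocyte score (1710). In STZ-HFD they were 29, 277, 19 and 11. With *Shh*, *Noto*, *Foxa2*, *Krt18* and *Car12* at few counts, depth limits what can be seen of them.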
